A study of Homo sapiens with 4 samples.

Results

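Genes that can end in more than 1 terminal exon were examined in polyadenylation site sequencing (PAS-seq) of the esophageal squamous cell carcinoma (ESCC) lines KYSE30 and TE-1. A gene was a member when PAS clusters (PACs, the groups of neighbouring cleavage sites in the deposited tables) lay in 2 or more separate 3′ UTR blocks of the gene, a block being a stretch left after the 3′ UTRs of all its protein-coding transcripts in GENCODE 44 were merged. A PAC counted when it was above 5 TPM in any library, TPM here being the tags of a PAC scaled to the tags of its library, with no correction for length. This gave 306 members of 9259 protein-coding genes with a counted PAC in a 3′ UTR (3.30%). Of the remaining genes, 1736 had 2 or more PACs in a single block and 7217 had 1 PAC.

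Each line was given 20 mM l-lactate for 24 h or PBS, and 1 library was made of each, so the 4 libraries are KYSE30 with PBS, KYSE30 with l-lactate, TE-1 with PBS and TE-1 with l-lactate. Values below follow that order unless stated otherwise. Both are long-established human lines. The titles of the PBS samples name K30 and TE1, whereas their cell line labels read KYSE32 and TE-3, and the titles were followed here. If the labels were right, the PBS and l-lactate libraries compared below would be of different lines. With PBS and l-lactate, VIM had 5.66 and 6.69 TPM in the K30 libraries and 991 and 982 TPM in the TE1 libraries. The identity of the lines was not tested further. With 1 library per condition and line there was no spread between cultures to test against, so differences are given with 95% intervals that cover counting error only. A library held 7174991 to 10393799 tags, of which 92.5% to 93.1% fell in the listed PACs, and the lowest listed value was 1.06 to 1.12 TPM. A PAC that a library did not list was taken as 0, although it may have had tags there, the lowest listed PAC of a library having 8 to 11.

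The squamous markers split the lines. The squamous transcription factors TP63 and SOX2 were listed in KYSE30 only, at 24.2 to 32.6 TPM and 168 to 220 TPM, and the epithelial adhesion gene EPCAM had 563 to 635 TPM in KYSE30 and 30.7 to 36.4 TPM in TE-1. The keratins KRT5 and KRT14 and the desmosomal cadherin DSG3, which define basal squamous cells, were listed in no library. The other 2 keratins of the list were each in 1 line, KRT6A in KYSE30 only at 20.3 and 40.4 TPM and KRT17 in TE-1 only at 187 to 245 TPM. The mesenchymal intermediate filament VIM had 5.66 to 6.69 TPM in KYSE30 and 982 to 991 TPM in TE-1. CDH2, COL1A1 and ZEB1 of the same list were also higher in TE-1, at lower TPM. FN1, which encodes the matrix protein fibronectin and stands on that list too, went the other way, with 128 and 74.1 TPM in KYSE30 and 2.60 and 0 TPM in TE-1. Summed over the lists, 6 of 9 squamous markers were listed and had 980 to 1156 TPM in KYSE30 and 224 to 275 TPM in TE-1, and 5 of 6 mesenchymal markers had 82.9 to 136 TPM and 1026 to 1033 TPM. Most of the squamous sum in KYSE30 came from the epithelial adhesion genes EPCAM and CDH1 (CDH1, 204 and 228 TPM). In TE-1 most of it came from KRT17. These sums therefore do not rank the lines as squamous. Of 3 blood markers only CD68 was listed, at 3.48 to 15.2 TPM, and neither of the 2 endothelial markers was. Every difference between the lines given below moves with these markers, and their part in it was not tested.

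A transcript ends where its RNA is cleaved and a poly(A) tail is added, usually a short distance past the hexamer AAUAAA or a variant of it, which the cleavage and polyadenylation machinery binds. When sites lie in tandem in 1 terminal exon, the choice between them changes the length of the 3′ UTR. When they lie in different terminal exons, the choice competes with splicing of the intron between them and changes the end of the protein as well, as in lamins A and C or in membrane and soluble forms of a receptor. A composite terminal exon is an internal exon that runs on into its intron up to a cleavage site, and a skipped terminal exon is one that the longer transcripts splice past.

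The 30 nt that end at the cleavage site are shown for both ends of 8 members on which the results turn, 4 with large differences between the lines and 4 described with the lists or with l-lactate. They were read from the reference genome GRCh38 on the strand of the gene, 5′ to 3′, for the PAC with the most tags in the block, and the capitals mark the poly(A) signal (AATAAA, or the first of 9 variants found).
DST earlier end (chr6:56614598-56614627, minus strand): ggttaagtgaatgAATAAAatgttttagta
DST last end (chr6:56458238-56458267, minus strand): ctatgaAATAAAacacgtcccttaactgca
MRPL43 earlier end (chr10:100986276-100986305, minus strand): aaaacaggttAATAAActtatccaaggtca
MRPL43 last end (chr10:100981376-100981405, minus strand): tttgggcAGTAAAtgtttgttgagcactta
DNAJB6 earlier end (chr7:157386295-157386324, plus strand): ttggtgcattcttcctgagtgggatctgga
DNAJB6 last end (chr7:157417405-157417434, plus strand): acctacataAATAAAacataagcatattga
MAP3K20 earlier end (chr2:173227115-173227144, plus strand): ctccattttgcAATAAAcgttttgacagta
MAP3K20 last end (chr2:173267490-173267519, plus strand): tttcagtAATAAAaaaagttactgaattta
TMPO earlier end (chr12:98535599-98535628, plus strand): ctgcaaattcAATAAAgttgttaaatttga
TMPO last end (chr12:98550283-98550312, plus strand): aattcaatAATAAAaagtaattaacctcta
CSTF3 earlier end (chr11:33141431-33141460, minus strand): tgcaacaacATTAAAacagtttcaatggta
CSTF3 last end (chr11:33084590-33084619, minus strand): taaaagtcctttaaaaAATAAAaggattca
AZI2 earlier end (chr3:28331690-28331719, minus strand): ccctccatccAATAAAaaatactgatctga
AZI2 last end (chr3:28323536-28323565, minus strand): gaAATAAAagcatcttaggttataccatct
NUP98 earlier end (chr11:3711835-3711864, minus strand): atgatttATTAAAtaatctcttaggaggca
NUP98 last end (chr11:3675019-3675048, minus strand): tcttaaaaaataAATAAAatgtttatagca
Of these 16 ends, the earlier end of DNAJB6 held none of the 10 hexamers in its 30 nt, and its dominant site differed in 1 of the 4 libraries, as did that of the last end of MAP3K20. The last end of MRPL43 carried AGTAAA, and the earlier ends of CSTF3 and NUP98 carried ATTAAA. In all the others the signal was AATAAA, ending between 8 and 22 nt before the cleavage site.

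The annotation bore out the name of the group for most members. In 166 members an earlier end was a composite terminal exon and in 121 a skipped one, together 287 (93.8%). In a further 18 a single transcript carried 3′ UTR in both blocks, so that an intron lay inside the 3′ UTR, and in 1 the blocks lay in the same exon. Most members had 2 blocks with PACs (290), 15 had 3 and 1 had 4, and the 306 genes held 729 PACs, 347 in earlier and 382 in last blocks. No member was a read-through transcript by its annotation, and 3 shared a PAC with another gene. The cleavage sites lay far apart, at a median of 13928.5 nt between the main site of the earlier and of the last block (738 to 299278 nt), against 12097 nt for composite and 22051 nt for skipped exons. In 180 members they were over 10 kb apart, and the longest span belonged to SSH2, a phosphatase that activates the actin-severing protein cofilin. The representative (MANE) transcript ended in the last block in 237 members, in an earlier block in 62 and in a block without a counted PAC in 7. Among the 7 were KIF13A, BCCIP and TPM3, whose shares below leave that end out. At the threshold, RTKN2 and SP100 were the nearest inside, with 5.157 TPM at best in their lesser block, and PSG5 (4.983 TPM) and USP19 (4.959 TPM) were the nearest outside.

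The earlier ends of members carried the canonical signal as often as the last ends did. AATAAA was found in the 50 nt upstream of the site, on the strand of the gene, in 72.0% of PACs in earlier blocks (Wilson 95% interval 67.1% to 76.5%) and in 70.9% of those in last blocks (66.2% to 75.3%). This was close to the most distal PACs of genes with a single block (72.4%) and to PACs that were the only one of their gene (71.5%), whereas the more proximal PACs of single-block genes held it in 51.4% (49.3% to 53.6%). Among all 11672 counted PACs in 3′ UTRs the share was 68.1%. ATTAAA without AATAAA was present in 13.3% of earlier and 17.0% of last ends of members, and in 21.2% of the proximal PACs of single-block genes (all PACs, 16.7%). The 10 hexamers searched were AATAAA, its variant ATTAAA and the rarer AGTAAA as well as TATAAA, further CATAAA besides GATAAA, and lastly AATATA next to AATACA along with AATAGA and finally ACTAAA, some of which can overlap each other. Any of them lay within 30 nt of the site in 93.1% of earlier and 89.3% of last ends (all PACs, 91.0%).

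TGTA, the DNA letters of the UGUA motif that the NUDT21 subunit of cleavage factor Im binds, was present in the 100 nt upstream of 54.5% of earlier ends (49.2% to 59.6%) and 58.6% of last ends (53.6% to 63.5%), intervals that overlap. It was present in 65.5% of the most distal PACs of single-block genes and in 58.5% of all PACs. These matches describe the letters of the windows and do not show binding. In both kinds of end few sites preceded an A-rich stretch of the genome (7 or more A in the next 10 nt), 1.73% of earlier and 2.09% of last ends against 1.39% of all PACs, and none of the 16 ends printed above did.

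**Figure D1:**
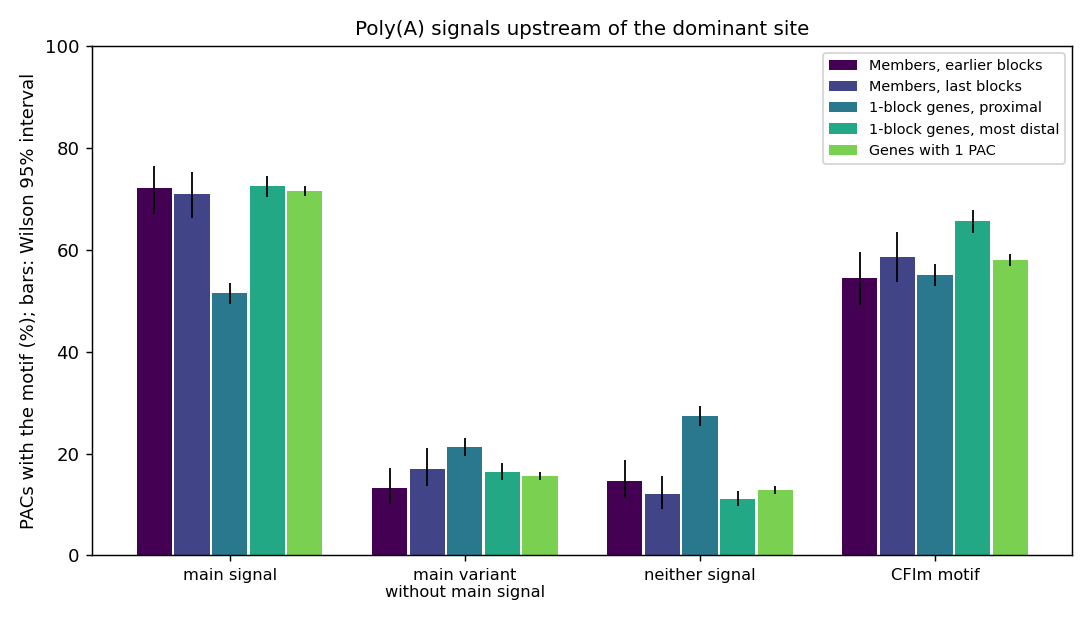
Percentage of PACs (y axis) with AATAAA (main signal), with ATTAAA but not AATAAA (main variant), with neither, and with TGTA (CFIm motif), for earlier and last blocks of members, proximal and most distal PACs of single-block genes and the only PAC of a gene. Bars show the Wilson 95% interval of counting error, and both ends of members stand near 71% to 72% for the main signal while proximal PACs of single-block genes stand at 51.4%.

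Most members used the last block more than the earlier ones. The last-block share, the percentage of the TPM of the counted PACs of a gene that lay in its most 3′ block, had a median of 72.4% in KYSE30 with PBS, 69.9% in KYSE30 with l-lactate, 65.3% in TE-1 with PBS and 64.8% in TE-1 with l-lactate, over 301, 301, 300 and 300 members with any TPM. The lower and upper quartiles were wide, from 42.0% to 90.9% in KYSE30 with PBS and from 35.2% to 87.6% in TE-1 with PBS. Of the 295 members with a value in every library, 163 (55.3%) had over 50% of their TPM in the last block in each of the 4, and 72 (24.4%) had under 50% in each. The main end thus differed between the lines, in both libraries of each, in 27 members, given below, and the remaining 33 had no fixed main end by this measure.

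Among the 20 members with the highest mean TPM, 8 had over 90% in the last block in every library, 6 under 10% in every library and 6 neither. RPL31, a protein of the large ribosomal subunit with 4574 to 10268 TPM, had a last-block share of 0.0396% to 0.172%. RPS6, of the small subunit, had 99.7% to 100%, and the simple-epithelial keratin KRT8 had 99.1% to 99.8% with TPM of 969 to 2229. NPM1, a nucleolar histone chaperone, was again mostly at its earlier end, with last-block shares of 2.96% and 3.67% in KYSE30 and 8.29% and 8.35% in TE-1. RBMX, which encodes an RNA-binding protein, used both ends in every library, with 52.8% to 62.6% in the last block. Members together held 4.91% to 5.02% of the listed tags of a library, and 48.9% to 56.6% of their tags lay in last blocks.

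The lines differed in which end was used far more than the treatments did. The median absolute difference of the last-block share was 9.47 percentage points between the lines with PBS and 8.50 with l-lactate (295 members), but 2.95 between l-lactate and PBS in KYSE30 (301 members) and 2.98 in TE-1 (300 members). A member was called different between the lines when its share differed by 10 percentage points or more, the same way, in the PBS pair and in the l-lactate pair, which share no library. This held for 104 of 295 members (35.3%), with a higher share in KYSE30 in 74 (25.1%) and in TE-1 in 30 (10.2%). Among 1644 genes with several PACs in a single block, scored by the share of the most distal PAC, the same rule called 337 (20.5%), 242 (14.7%) higher in KYSE30 and 95 (5.78%) in TE-1. The last-PAC share of all genes with 2 or more PACs was called in 22.6%. Composite and skipped exons were called about as often, in 36.2% and 35.9% of those measured.

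Part of this rests on ends that passed 5 TPM in only 1 line. In 156 members at least 2 blocks passed in both lines, and in the other 150 they did not, so that a difference between the lines was part of how the latter came to be counted. Among the 156, 48 (30.8%) were called, 36 higher in KYSE30 and 12 in TE-1, against 177 of 1088 (16.3%) single-block genes held to the same condition. Among members with at least 20 TPM in every library, 48 of 194 (24.7%) were called, against 157 of 1158 (13.6%) single-block genes. In 14 of the 74 and 9 of the 30 called members 1 of the ends was unlisted in both libraries of a line, as in ERI2, an exonuclease gene with a share of 100% in KYSE30 and 0% in TE-1 but only 7.11 to 21.1 TPM in all.

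The TPM of each end describes the called members, whose ends the call itself set apart. In the 74 members with the higher share in KYSE30, the median log2 ratio of KYSE30 over TE-1 with PBS was -1.03 for the earlier blocks, 0.53 for the last block and -0.06 for their sum (pseudocount of 1 TPM). In the 30 with the higher share in TE-1 it was 1.20, -0.30 and 0.17. The summed TPM was within 2-fold between the lines in both pairs in 49 of the 74 and in 13 of the 30, and 38 of the 74 and 18 of the 30 did not pass 5 TPM in both lines for 2 blocks. A change of share at a steady sum gives the larger ratio to the end with the lower TPM, so these ratios do not rank the ends.

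**Figure D2:**
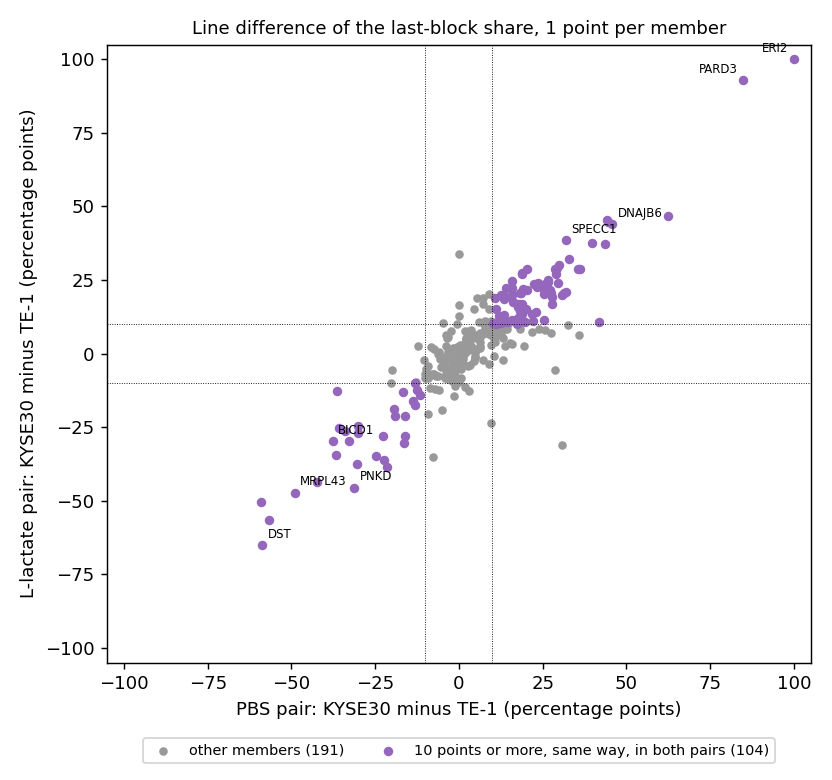
Difference of the last-block share between the lines, KYSE30 minus TE-1 in percentage points, with PBS (x axis) and with l-lactate (y axis), 1 point per member, 295 in all. The 104 purple points passed 10 percentage points the same way in both pairs, 74 at the upper right and 30 at the lower left, and dotted lines mark the threshold.

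The 10 members with the largest difference in each direction, of those with 20 TPM in every library, are given by what they encode, a grouping made after the genes were known. How large each group is among all members was not counted, so the group sizes describe these 20 genes only. Of the 20 genes, 5 encode proteins of the cytoskeleton. DST encodes dystonin, a plakin whose epithelial form ties keratin filaments to hemidesmosomes and whose longer forms bind microtubules. Its earlier blocks together had 279 and 300 TPM in KYSE30 and 7.02 and 7.08 TPM in TE-1, of which the PAC of the first DST sequence above held 268, 291, 4.81 and 5.08 TPM, and its last block had 67.7, 58.3, 25.2 and 30.8 TPM. The last-block share was therefore 19.5%, 16.2%, 78.2% and 81.3%, and the lines did not overlap. KYSE30 stood lower by 58.7 percentage points with PBS (interval 53.7 to 63.0) and by 65.1 with l-lactate (60.2 to 69.2), while the summed TPM was 3.39 and 3.21 higher on the log2 scale. Counting only the most 3′ PAC, the differences were 42.2 and 45.7 percentage points in the same direction.

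KIF13A, a kinesin motor, had last-block shares of 39.1% and 28.3% in KYSE30 and 55.4% and 58.8% in TE-1. SSH2 had 51.8%, 45.5%, 67.8% and 73.5% across its long span. SPECC1, a cytospin that associates with microtubules and actin, stood the other way, at 67.8% and 64.9% in KYSE30 against 36.0% and 26.2% in TE-1, a difference of 31.9 points with PBS (24.8 to 38.5) and 38.7 with l-lactate (30.8 to 45.7). TROAP, a spindle-associated protein gene, had 79.7% and 74.1% against 43.5% and 45.2%. Its last block differed little (57.1, 47.8, 49.5 and 50.7 TPM), and its earlier end had 14.5 and 16.7 TPM in KYSE30 and 64.3 and 61.5 TPM in TE-1.

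A further 5 act in mitochondria, peroxisomes or metabolism. MRPL43, a subunit of the large mitochondrial ribosome, had 102, 106, 73.7 and 70.5 TPM at its earlier end and 6.60, 6.41, 90.3 and 79.2 TPM at the last, so that its last-block share was 6.08%, 5.73%, 55.1% and 52.9%. TE-1 was higher by far more than the counting error, the differences being -49.0 percentage points (-51.8 to -46.0) and -47.2 (-50.3 to -43.9). When PACs down to 1 TPM were counted, a minor PAC further 3′ became the last block and these differences were -0.198 and -0.157, while the 2 ends shown above kept the values given here. UROS, which encodes an enzyme of heme synthesis, had 63.2% and 65.6% in KYSE30 and 100% in both TE-1 libraries, where its earlier end was unlisted. PNKD, a gene of a mitochondrial and synaptic protein, had 18.8%, 19.3%, 50% and 64.8%, and IP6K2, an inositol hexakisphosphate kinase, had 20.2%, 25.5%, 36.4% and 46.9%. PEX13, needed for import into peroxisomes, was higher in KYSE30, with 87.6% and 86.4% against 60.2% and 65.9%.

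Another 3 encode a chaperone, a stress kinase and a stress-response factor. All 3 had the higher last-block share in KYSE30, as did 74 of the 104 called members, and 3 are too few to set against that. DNAJB6 encodes a heat shock protein 40 cochaperone with a long nuclear and a short form. Its earlier end had 29.5, 41.1, 65.9 and 85.8 TPM and its last end 57.8, 51.4, 16.9 and 11.3 TPM, giving shares of 66.2%, 55.6%, 20.4% and 11.7%. The line difference of 45.8 percentage points with PBS (41.1 to 50.1) and 43.9 with l-lactate (39.4 to 48.2) came at almost equal summed TPM (log2 ratios of 0.07 and -0.07). MAP3K20, which encodes the ribotoxic stress kinase ZAK in a long and a short form, had 50.4%, 57.6%, 20.5% and 27.3%. The larger difference was at the earlier end, with 19.0 and 20.2 TPM in KYSE30 and 57.1 and 55.3 TPM in TE-1. HAPSTR1, a stress-response gene with 8 PACs, had 58.4%, 54.0%, 29.8% and 25.2%, but the share of its most 3′ PAC alone differed by only 6.80 and 4.74 percentage points.

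The remaining 7 encode factors of the nucleus, RNA binding, the cell cycle or membrane sorting, 4 higher in KYSE30 and 3 in TE-1. RCOR3, a corepressor of the CoREST family, had 93.1% and 89.8% in KYSE30 and 66.6% and 64.8% in TE-1, and the transcription factor gene ATF7 had 52.5%, 47.8%, 32.1% and 26.3%. SYNCRIP, an hnRNP of mRNA transport and stability, had 75.1%, 75.6%, 94.4% and 94.3%, and ANKRD11, a chromatin regulator, had 71.6%, 67.7%, 90.6% and 88.7%. The call of SYNCRIP was not kept with its most 3′ PAC alone (-5.36 and -0.442 points), nor that of ANKRD11 with PACs placed by overlap in place of their dominant site (-6.09 and -1.24 points). RCOR3 and SYNCRIP were no longer members when blocks less than 500 nt apart were joined. BCCIP, a BRCA2-binding protein gene, had 14.6%, 15.2%, 44.9% and 42.1%. In RCOR3, ANKRD11 and BCCIP 1 end passed 5 TPM in 1 line only, as in UROS. The earlier end of RCOR3 had 2.155 and 3.345 TPM in KYSE30, and that of ANKRD11 had 3.85 and 4.37 TPM in TE-1. The last end of BCCIP had 4.31 and 4.32 TPM in KYSE30. For these genes a difference between the lines was part of how they came to be counted. CDC23, a subunit of the anaphase-promoting complex, had 96.2%, 88.4%, 73.8% and 64.8%, and SNX5, a sorting nexin of the retromer pathway, had 89.5%, 82.2%, 65.9% and 58.3%. For SNX5 the most 3′ PAC alone gave differences of 2.07 and 0.650 points.

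**Figure D3:**
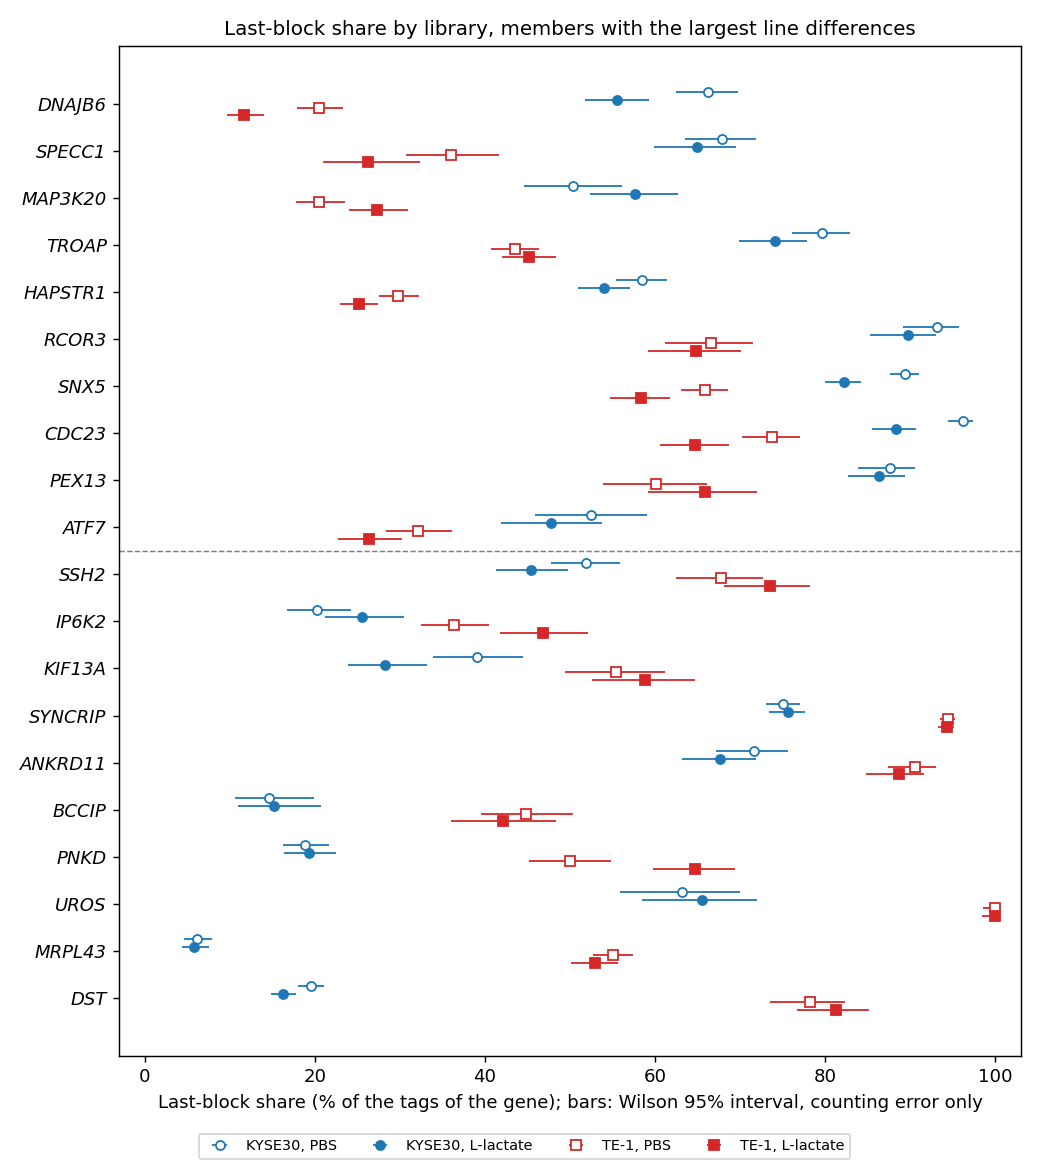
Last-block share in percent (x axis) of the 10 members with the largest difference in each direction (rows), in KYSE30 (blue circles) and TE-1 (red squares) with PBS (open) and l-lactate (filled). Horizontal bars are Wilson 95% intervals of counting error. In each row both KYSE30 libraries lie on the same side of both TE-1 libraries, which the choice of rows by their line call largely fixed.

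The main end itself differed between the lines in 27 of the 295 members measured in every library. No such count was made over all genes with 2 or more PACs. Among the 27 is ERI2, with an end unlisted in each line. CEP78 and ZNF264 are also among them, and their line differences changed sign in at least 1 pair with the most 3′ PAC alone. In 18 (6.10%) the last block held over 50% in both KYSE30 libraries and under 50% in both TE-1 libraries, and in 9 (3.05%) it was the reverse. With at least 20 TPM in every library this left BPTF, DNAJB6, HAPSTR1, MAP3K20, SLC30A5, SPECC1 and TROAP in the first set, and DMKN, DST, KIF13A and MRPL43 in the second. For KIF13A the MANE end held no counted PAC, so its main end is that among the counted ends only. With PACs down to 1 TPM the line differences of the last-block share of MRPL43 were -0.198 and -0.157 points. BPTF, the largest subunit of the NURF chromatin remodeler, lay close to the boundary at 62.8%, 50.9%, 49.1% and 42.4%, and so did DMKN, an epidermal secreted protein gene, at 37.7%, 41.3%, 50.6% and 51.0%. SLC30A5, a zinc transporter of the secretory pathway, had 65.4%, 56.3%, 48.0% and 46.2%.

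Genes known for alternative terminal exons were described from a list of 20. Of these, 17 had a counted PAC and 10 were members (58.8% of the 17, beside 3.30% of all genes with a counted PAC). Between the lines 2 of the 10 (DNAJB6 and RBBP6) were called, both higher in KYSE30, which is 20% beside 35.3% of all members. The median difference over the 10 was 9.19 percentage points with PBS and 5.98 with l-lactate, beside 3.40 and 2.68 over all members. DNAJB6 is given above. KLC1, a kinesin light chain with several C-termini, had 44.6% and 38.0% in KYSE30 against 26.4% and 29.5% in TE-1, and NAP1L1, a nucleosome assembly protein, had 51.8%, 50.9%, 59.9% and 58.3%. NAP1L1 used its ends almost equally in each library, at 239 to 316 TPM in the earlier block and 324 to 394 in the last.

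The nuclear lamina and tropomyosin list held 16 genes, 15 with a counted PAC. Of the 15, 4 were members (26.7%, beside 3.30% of all genes with a counted PAC). These 4 (LMNA, TMPO, TPM1 and TPM3) also stand on the list of genes known for alternative terminal exons, so the rate is not separate from the one given there. None of the 4 was called between the lines, beside 35.3% of all members, and 4 are too few to set against that rate. LMNA ends early as lamin C and late as lamin A, and its last-block share was 91.9%, 91.6%, 88.2% and 89.3%, at 23.0 to 31.3 TPM early and 225 to 281 TPM late. The other members were more mixed. TMPO, whose early end belongs to the form LAP2α that has no membrane anchor, had 54.8%, 42.9%, 45.4% and 36.7%. TPM1 and TPM3, which encode tropomyosins of actin filaments, had mainly the last block among their counted PACs, with 100%, 100%, 89.2% and 94.2% and with 95.4%, 96.0%, 86.5% and 89.5%. The earlier blocks of TPM1 were unlisted in KYSE30 and had 33.5 and 17.8 TPM in TE-1.

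The list of receptors and surface proteins with truncated forms held 23 genes, 16 with a counted PAC. Of the 16, 2 were members (12.5%, beside 3.30% of all genes with a counted PAC). Neither was called in any comparison, beside 35.3% of all members between the lines, and 2 are too few to set against that rate. The growth factor receptor gene EGFR, which has an early end coding for a soluble ectodomain, had 19.7 and 17.8 TPM there in KYSE30 and 5.10 and 2.95 TPM in TE-1. Its last block had 842, 848, 121 and 137 TPM, so the share stayed between 96.0% and 97.9% while the level differed by 2.76 and 2.62 on the log2 scale. CD55, a complement regulator of the cell surface, had 90.6%, 84.9%, 94.8% and 93.2%, with a summed TPM lower in KYSE30 by 4.23 and 4.58 on the log2 scale.

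Among 26 genes of the 3′ end processing machinery, 22 had a counted PAC and 4 were members, and only RBBP6 was called between the lines, 1 of 4 beside 35.3% of all members. Members made up 18.2% of the 22, beside 3.30% of all genes with a counted PAC. Of these members CSTF3, PAPOLA and RBBP6 also stand on the list of genes known for alternative terminal exons, so this rate is not separate either. RBBP6, a ubiquitin ligase that binds the cleavage complex, had 73.1%, 71.9%, 60.5% and 61.5%. WDR33, the subunit that reads the poly(A) signal together with CPSF30, had 86.8%, 82.4%, 83.2% and 80.7%. CSTF3, the cleavage stimulation factor subunit CstF-77, whose early end lies in an intron of the full-length transcript, had 36.2, 37.6, 56.3 and 45.7 TPM early and 21.5, 27.9, 28.9 and 39.6 TPM late. Its last-block share was 37.3%, 42.6%, 33.9% and 46.4%. PAPOLA, the canonical poly(A) polymerase, had 72.4%, 79.1%, 73.1% and 84.3%.

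CSTF3 and PAPOLA were both higher with l-lactate in each line. For CSTF3 the difference was 5.26 percentage points in KYSE30 (-1.15 to 11.6) and 12.5 in TE-1 (7.69 to 17.3), and for PAPOLA it was 6.73 (2.56 to 10.9) and 11.2 (8.45 to 13.9). Both passed 10 percentage points in TE-1 only, where 7.67% of all members rose that far, and whether the lines differed in this was not tested. TMPO was lower with l-lactate in both lines, by 11.9 points in KYSE30 (interval -16.0 to -7.78) and 8.62 in TE-1 (-11.8 to -5.42), as its earlier end stood at 69.2, 88.9, 92.9 and 139 TPM. DNAJB6 was lower by 10.6 (-15.8 to -5.35) and 8.78 (-12.2 to -5.29), its earlier end being the higher with l-lactate in both lines. TMPO and DNAJB6 passed 10 points in KYSE30 only, where 8.97% of all members fell that far. In a limma fit of l-lactate with the line as block, described below, none of CSTF3, PAPOLA, TMPO and DNAJB6 was called (adjusted p of 0.395 to 0.422).

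**Figure D4:**
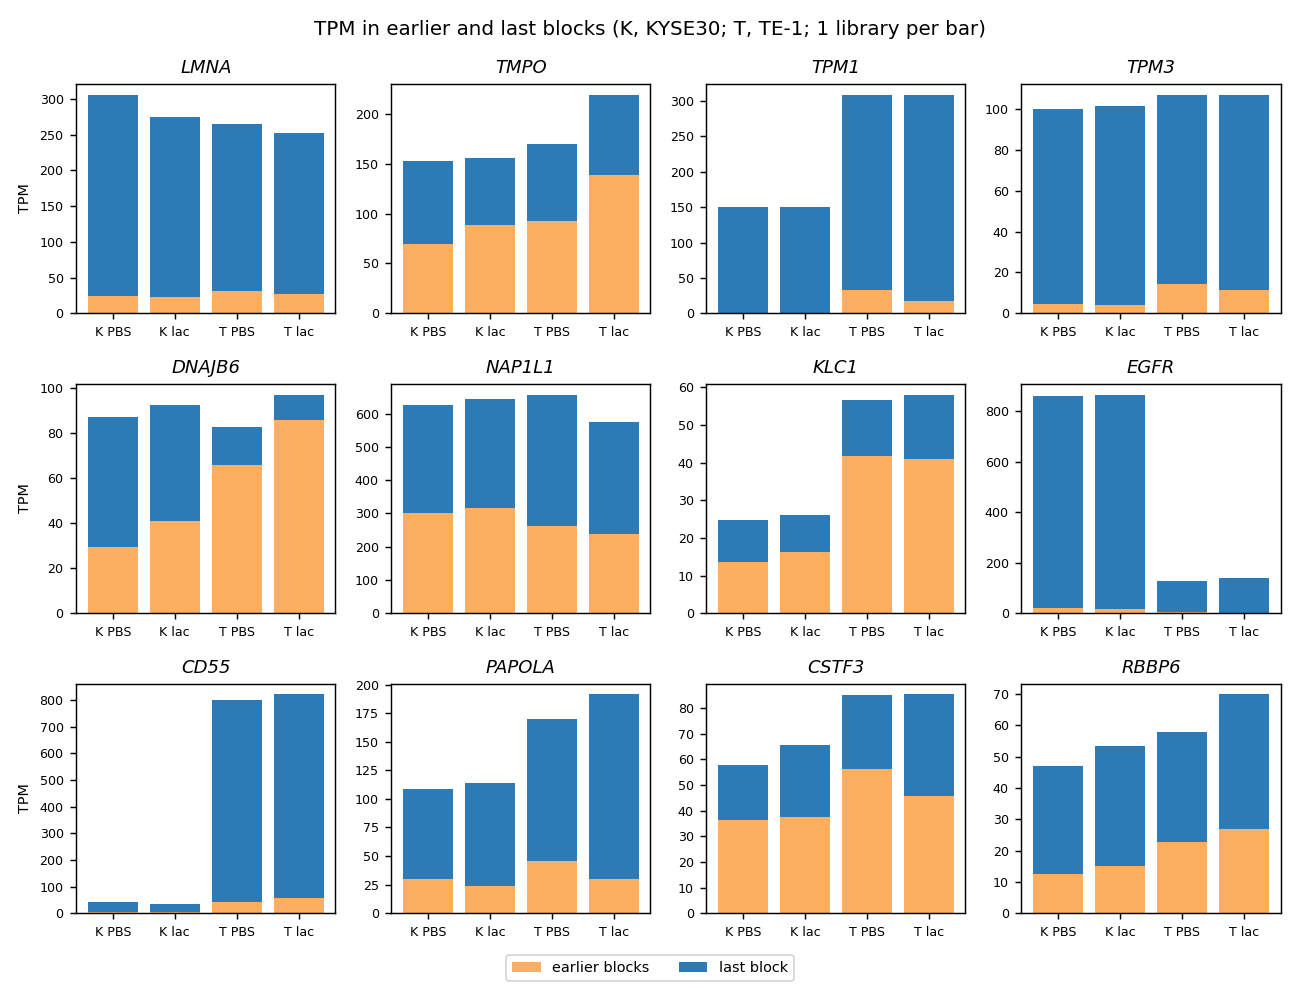
TPM (y axis, linear from 0) in the earlier blocks (orange) and the last block (blue) of 12 members of the lists, 1 bar per library, K for KYSE30, T for TE-1 and lac for l-lactate. There are no error bars, as each bar is 1 library, and the panels show DNAJB6 with most TPM in the earlier block in TE-1 and EGFR with most in the last block in all libraries.

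By symbol family, zinc finger genes (ZNF), the largest family looked at, gave 11 members of 236 with a counted PAC (4.66%, beside 3.30% of all genes). Of the 11, 2 were called higher in KYSE30 and 4 in TE-1, beside 25.1% and 10.2% of all members. The 4 were ZNF124, ZNF264, ZNF771 and ZNF789, and in ZNF264 the share was 43.0%, 45.8%, 75.7% and 75.6%, although with the most 3′ PAC alone its line difference changed sign, to 43.0 and 45.8 points. Solute carriers gave 3 members of 170 (1.76%), and the SRSF and HNRNP families gave none of 31, beside 3.30% of all genes. Of the 3 solute carriers SLC30A5 and SLC38A6 were called higher in KYSE30, beside 25.1% of all members.

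With l-lactate few members moved by 10 percentage points. In KYSE30 the last-block share rose by that much in 14 of 301 members (4.65%) and fell in 27 (8.97%), and the median change was -0.687 points. In TE-1 it rose in 23 of 300 (7.67%) and fell in 13 (4.33%), and the median was 0. The background was near these values, since over all genes with 2 or more PACs the last-PAC share rose in 3.71% and fell in 6.83% in KYSE30, and rose in 6.64% and fell in 5.68% in TE-1. Among members with 20 TPM in every library, 6.19% passed in each line.

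In 9 members of 295 the change passed the threshold the same way in both lines, 5 rising (1.69% of 295) and 4 falling (1.36%), beside 1.08% and 1.29% of all genes with 2 or more PACs, and 2 (0.678%, beside 0.877%) moved in opposite directions. Only AZI2 and NUP98 of these had 20 TPM in every library. AZI2, which encodes an adaptor of the kinase TBK1, had 13.1, 10.2, 20.4 and 15.6 TPM at its skipped earlier exon and 10.1, 14.5, 19.2 and 23.97 TPM at its last. Its share of 43.6% with PBS and 58.8% with l-lactate in KYSE30, and of 48.5% and 60.6% in TE-1, differed by 15.2 (4.66 to 25.2) and 12.1 points (4.87 to 19.0). Both libraries with l-lactate were above both with PBS, and the summed TPM was nearly the same within each line.

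NUP98, which encodes the nucleoporin Nup98 alone or, from the longer transcript, a precursor of Nup98 and Nup96, went the other way. Its earlier end had 6.73, 9.62, 19.1 and 28.0 TPM and its last block 18.4, 16.3, 36.1 and 33.3 TPM. The share was 73.3% with PBS and 62.9% with l-lactate in KYSE30, and 65.3% and 54.3% in TE-1, differences of -10.4 (-19.6 to -0.897) and -11.0 points (-16.7 to -5.18). The difference in TE-1 was -3.24 points with the most 3′ PAC alone, and -8.40 points both at a minimum of 10 TPM and with PACs listed in every library, so that the call in both lines was not kept under these 3 settings. In the limma fit with the line as block neither AZI2 nor NUP98 was called (adjusted p of 0.395 each).

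The other 7 rested on few tags, with 47 to 77 tags in the least covered library of 6 of them and 141 in that of BORCS8. BORCS8, a lysosome positioning gene, had 81.2%, 100%, 62.4% and 72.5%. GOSR2, a Golgi SNARE, had 48.4%, 64.9%, 56.1% and 100%, its earlier end being unlisted in TE-1 with l-lactate. TTC39C and PCBD2, which encodes a dehydratase of tetrahydrobiopterin recycling, also passed 10 points upward, but for PCBD2 the intervals included 0 in KYSE30 (-2.60 to 25.2) and TE-1 (-5.20 to 27.2). In 4 of the 5 rises and 3 of the 4 falls the intervals left out 0 in both lines. These intervals do not cover tags left unlisted, which matters for BORCS8, GOSR2 and ZNF721, where an end was taken as 0. Among those that fell, CREM, a cAMP-responsive transcription factor gene, had 68.6%, 40.3%, 90.1% and 78.8%, and BICD1, a dynein adaptor, had 62.3%, 48.0%, 100% and 77.7%. The BICD1 interval in KYSE30 included 0 (-29.1 to 1.42), and its difference there was 4.75 points when PACs down to 1 TPM were counted. In ZNF721 the earlier block was unlisted in both PBS libraries and had 5.02 and 6.73 TPM with l-lactate, so that its share of 100% with PBS was 48.6% and 32.1% with l-lactate. The earlier ends of ZNF721, CREM and BICD1 passed 5 TPM with l-lactate only, and those of GOSR2 and PCBD2 with PBS only. In these genes a difference between the treatments was part of how they came to be counted.

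**Figure D5:**
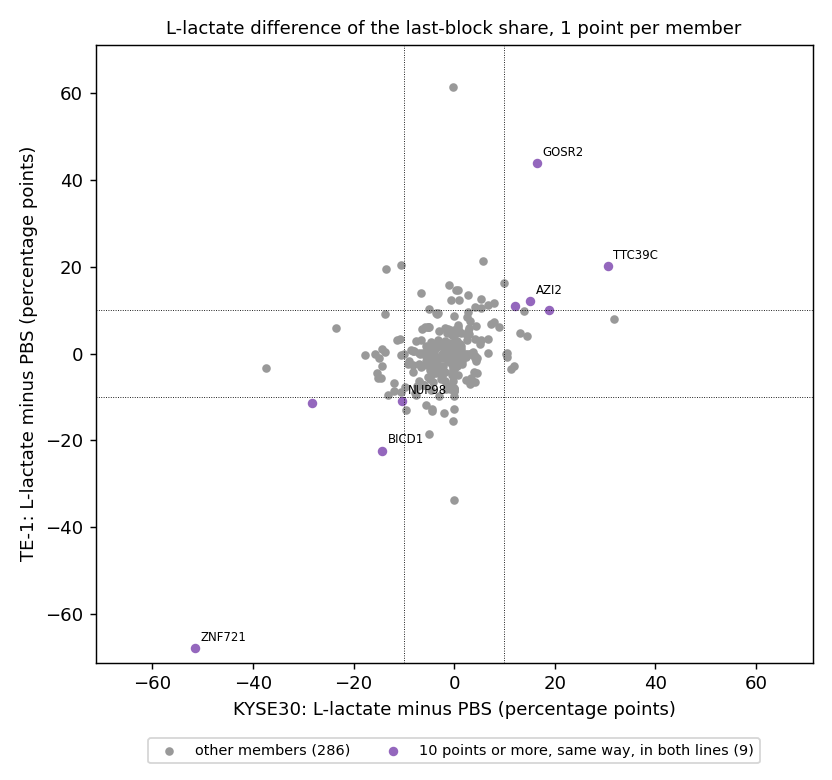
Difference of the last-block share with l-lactate, l-lactate minus PBS in percentage points, in KYSE30 (x axis) and TE-1 (y axis), 1 point per member, 295 in all. The 9 purple points passed 10 percentage points the same way in both lines, most members lie within the dotted lines, and ZNF721 is the farthest from 0. The earlier block of ZNF721 passed 5 TPM with l-lactate only.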

How the data were processed

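PAS-seq was done on 4 libraries, 1 per line and condition. According to the study's methods, reads were trimmed with FASTX-Toolkit and aligned to GRCh38 with HISAT2, sites were called with CAGEr, sites with low TPM were left out, and neighbouring sites and PACs were joined. The values deposited by the authors are RPM (called TPM), the tags of a PAC scaled to the tag total of its library. The start column is 0-based, and positions printed here are 1-based. Within 0.00051 TPM, the rounding of the values, 100% of them were whole multiples of 1 step per library, which gave the tags behind each share.

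PACs above 5 TPM in any library were placed by their dominant site into 3′ UTR blocks of GENCODE 44, with pysam 0.24.0 for sequence. The build of the labels, GRCh38, is that of the annotation. A PAC whose dominant site lies a few nt past an annotated end was not counted, and markers were therefore read from overlapping PACs. The last-block share was taken per gene and library, with Wilson intervals, and Newcombe intervals for differences. There were no replicate cultures to test across. As an alternative chosen after the data were seen, l-lactate was fitted with limma 3.58.1 in R 4.3.3 on the log2 ratio of last over earlier TPM (pseudocount of 1), with the line as block. A call needed 10 percentage points, in both pairs for the line and in both lines for l-lactate. The named genes were, among members with composite or skipped exons, no shared PAC and 20 TPM in every library, up to 10 per direction for the line, up to 5 per direction for l-lactate, and all members on 4 gene lists. Further genes (RPL31, RPS6, KRT8, NPM1, RBMX, ERI2, METTL21A, ERCC6L2, VWA5A, those of the symbol families, those whose main end differed and the remaining l-lactate calls) were chosen after their values were seen. The members and lists were chosen with earlier results of these data known. The alternatives changed the minimum TPM, the PACs, blocks and members counted, the size of a call, the measure, the motif windows and the pseudocount, or added Fisher's exact test on tags, which compares single libraries. The script was tested on simulated data. The work was done in Python 3.11.15 with pandas 2.3.3 and NumPy 2.4.6, intervals and tests with SciPy 1.17.1, and figures with matplotlib 3.10.9.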

Additional observations from a re-analysis of the deposited data

Results flagged for a closer look

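In 2 members l-lactate moved the last-block share by 10 percentage points or more in opposite directions in the lines. In GPALPP1 it was -13.5 percentage points in KYSE30 (interval -23.5 to -3.03) and 19.6 in TE-1 (6.97 to 31.6), with shares of 69.8% and 56.3% in KYSE30 and 60.2% and 79.8% in TE-1 with PBS and l-lactate. In ZHX1, a zinc finger and homeobox repressor gene, it was -10.6 in KYSE30 (-24.8 to 4.18) and 20.5 in TE-1 (8.31 to 31.9), with shares of 70.9%, 60.3%, 29.1% and 49.6%. Both belong to the 18 members whose blocks lie in 1 transcript with an intron in its 3′ UTR. GPALPP1 had 93 to 167 tags per library and ZHX1 78 to 134, and the difference between the lines was not tested.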

How the results depend on the processing

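With 1 library per condition and line no replicate could be left out. The limma fit with the line as block pairs l-lactate with PBS within a line and leaves 1 residual degree of freedom. It called 0 rises and 0 falls among 295 members at an adjusted p of 0.05 (smallest adjusted p 0.0634). The p-values of limma were adjusted over all 1939 genes with 2 or more PACs, members included. An unadjusted p under 0.05 was found in 46 of the 295 members, beside 244 of the 1939 genes. The sign of the line difference changed in at least 1 pair in 5 of the 104 line calls (CEP78, FARP1, NR2C1, SPATA33 and ZNF264) with the most 3′ PAC alone, and that of 1 of the 9 l-lactate calls (BICD1, in KYSE30) at a minimum of 1 TPM. No line or both-line l-lactate call changed sign with a minimum of 10 TPM, PACs listed in every library, overlap placement, joined blocks or A-rich sites left out, where the members were still measured. Counts are given in the order of line calls higher in KYSE30 and in TE-1 (74 and 30), l-lactate rises and falls in KYSE30 (14 and 27) and in TE-1 (23 and 13), and rises and falls in both lines (5 and 4), and only counts that moved by over 1.5 times are named. Calls at 5 percentage points gave 117, 48, 28, 68, 57, 53, 16 and 23, and at 20 points 32, 18, 2, 4, 5, 3, 1 and 1. Single-block genes gave 456 and 193 at 5 points and 69 and 33 at 20. A minimum of 1 TPM gave 464 members, with 37 rises and 42 falls in KYSE30, 40 and 26 in TE-1 and 9 rises in both, and medians of 78.4%, 76.9%, 73.1% and 74.0%. A minimum of 10 TPM gave 164 members, with 41, 16, 6, 15, 10, 5, 2 and 1, medians of 61.6%, 58.2%, 56.7% and 58.8%, and 160 and 58 single-block genes. Members with 20 TPM in every library (194) gave 35, 13, 3, 9, 7, 5, 1 and 1, with medians of 75.7% in KYSE30 with l-lactate, 73.1% in TE-1 with PBS and 72.4% in TE-1 with l-lactate, beside 121 and 36 single-block genes. PACs listed in every library gave 17 line calls higher in TE-1, 7 rises and 17 falls in KYSE30, 7 falls in TE-1, and 3 rises and 1 fall in both. Fisher's exact test, at an adjusted p of 0.01 or less, left 5 rises and 11 falls in KYSE30, 13 rises in TE-1, and 1 rise and 2 falls in both. Some settings were chosen after the data were seen. The 156 members passing in both lines gave 36, 12, 4, 11, 11 and 8, with 2 rises in both, beside 144 and 33 single-block genes, the level filter on single-block genes is given above, and leaving out PACs beside A-rich sequence moved no count this far. The most 3′ PAC alone gave medians of 58.3%, 56.3%, 53.1% and 53.8%. TGTA within 50 nt was found in 30.5% of earlier and 33.5% of last ends. Overlap placement, joined blocks, leaving out members that share PACs or have other classes, 1 pair alone and the pseudocounts moved none of these counts. PEX13 and UROS were not members at a minimum of 10 TPM, UROS and TPM1 with PACs listed in every library, RCOR3 and SYNCRIP with joined blocks, and IP6K2 without A-rich sites. Of 574 differences of named genes under the alternatives, 547 stayed within their counting interval, 27 left it and 0 reversed a call. Differences that were not called changed sign in EGFR (line differences of -2.77 and -6.57 with the most 3′ PAC alone), NAP1L1 (1.09 and 1.20, and both l-lactate differences), PAPOLA and RBBP6. A tighter minimum tests fewer genes. The cause of the other shifts was not tested.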

Other observations

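The last-block share went with the annotated end. Where the MANE transcript ended in the last block (237 members), the median share was 80.1%, 78.5%, 73.6% and 73.9% in KYSE30 with PBS and l-lactate and TE-1 with PBS and l-lactate, and where it ended in an earlier block (62 members) it was 29.6%, 31.6%, 25.4% and 23.7%. In 12 of the 18 members with an intron inside the 3′ UTR the MANE transcript ended in an earlier block.

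Some members differed widely between the treatments in 1 line where their level was low. A share of 0% or 100% here comes from an end that was not listed and was taken as 0. In METTL21A, a lysine methyltransferase gene, the last block was unlisted in KYSE30 with PBS and held 31.8% with l-lactate, beside 36.5% and 44.5% in TE-1. In ERCC6L2, a DNA repair gene, the share was 69.2% and 69.0% in KYSE30 and 38.5% and 100% in TE-1, where its summed TPM was 6.25 and 6.14. VWA5A had 37.5% and 0% in KYSE30, at 5.39 and 1.95 TPM, and 8.93% and 5.51% in TE-1, at 194 and 210 TPM.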
